A study of Mus musculus with 4 samples.

Results

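In the mouse genome, many protein-coding genes begin or end so close to a neighbour that a single stretch of open chromatin serves both. Of the 87948 ATAC-seq peaks counted in the hearts of this study, 1457 lay on autosomes, were under 2000 bp wide and lay within 500 bp of an end of 2 or more different protein-coding genes. These shared gene-end peaks lay near the ends of 2 genes in 1428 cases and of 3 or more in 29, and touched 2695 genes in all. Either end of a gene counted, the start or the finish of transcription. Gene positions were those of RefSeq on GRCm38.p6, the same assembly as mm10, and peak positions are given as the authors' file gives them. The rule used position and width only, and no accessibility value.

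ATAC-seq marks open chromatin with a transposase that cuts accessible DNA and inserts sequencing adapters. The libraries came from hearts of mice at postnatal day 14, 2 of wild-type animals and 2 of Carm1 mutants (neonatal hearts, in the wording of the series' design). Carm1 methylates arginines of histones and of transcription and splicing proteins, and serves as a coactivator. Labels name no strain, do not say how the mutant allele was made or in which cells it acts, and do not say whether replicates were separate animals, so p-values measure the spread between these libraries, which may be technical. A heart holds cardiomyocytes, endothelial cells, fibroblasts and other cells, and in such bulk tissue a lower count from fewer cells of a type cannot be told apart from less accessibility per cell.

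Total counts in peaks were 15945420 to 19091969 per library, and the median count at a shared gene-end peak was 377 to 466. The tissue label was checked against the strongest peak within 1000 bp of an end of 4 cardiomyocyte genes, Myh6, Tnnt2, Actn2 and Myl2. All 4 ranked at or above the 95.7th percentile of all peaks by normalized counts (CPM, scaled to library size by edgeR's TMM method). Peaks at gene starts stand high in general, with a median of 19.4 CPM near the start of only 1 gene, against 5.54 over all peaks. No gene of another tissue was ranked, so this is a weak check of the label. Of 89 marker genes for endothelial, fibroblast, mural, leukocyte, Schwann and erythroid cells, 6 had a shared gene-end peak, 8 peaks in all. The mutated gene itself is among the genes studied here. The peak shared by Carm1 and AB124611, at chr9:21545484-21546896, had 90.1 and 89.5 CPM in the wild-type libraries and 91.4 and 95.5 in the mutants. Its log2 fold change, mutant over wild type as throughout, was 0.06 ± 0.12 (SE, n = 2 per genotype), with an edgeR adjusted p of 0.839 (values under 0.05 pass the threshold, and such peaks are called). An open promoter does not show whether the gene product is made, so this peak does not check the genotype labels.

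When neighbouring genes lie head to head on opposite strands, their starts form a bidirectional promoter, a single nucleosome-depleted region from which transcription leaves in both directions. Such promoters are usually rich in CpG islands, often lack a TATA box, and are typical of housekeeping genes for mitochondrial function, DNA repair, translation and transcription. Factors of the ETS family such as GABPA, together with NRF1 and YY1, are known to act at many of them. Where genes meet tail to tail, the shared region holds the finishing ends of both, which as a rule are less open.

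The 6 promoter windows printed here are examples from shared gene-end peaks, and all but H2bc6 are from pairs that lie head to head. The H2bc6 peak instead holds the start of H2bc6 and the end of H1f4, on the same strand. Each window runs from 250 bases before to 50 bases after a RefSeq start. It is written 5′ to 3′ on the strand of the named gene. Where RefSeq has several starts, the window overlapping the peak most is given. Capitals mark every match, on either strand, to the 8 motifs searched: CCGGAAGT (ETS), CGCATGCG (NRF1 core), TGACGTCA (CRE), AAGATGGC (YY1 core), ACTACAAT (ZNF143 core), GGGCGG (GC box), CCAAT and TATAAA. Ndufs3 (chr2:90904672-90904971, minus strand), a subunit of respiratory complex I that faces Kbtbd4, was chosen to show an ETS match. Mrps12 (chr7:28741772-28742071, minus), a mitochondrial ribosomal protein that faces the seryl-tRNA synthetase gene Sars2, shows a YY1 match and 4 CCAAT boxes. Mdh1 (chr11:21571885-21572184, minus), cytosolic malate dehydrogenase facing Wdpcp, is among the most accessible promoters. Rassf7 (chr7:141215610-141215909, plus), Kctd21 (chr7:97332073-97332372, plus) and H2bc6 (chr13:23621045-23621344, minus) belong to peaks that differed between the genotypes.
Ndufs3: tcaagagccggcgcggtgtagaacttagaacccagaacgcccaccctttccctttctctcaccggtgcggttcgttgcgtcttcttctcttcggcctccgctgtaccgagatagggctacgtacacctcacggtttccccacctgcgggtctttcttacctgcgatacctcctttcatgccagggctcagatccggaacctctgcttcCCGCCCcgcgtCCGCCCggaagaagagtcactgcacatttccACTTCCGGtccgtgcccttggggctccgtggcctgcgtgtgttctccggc
Mrps12: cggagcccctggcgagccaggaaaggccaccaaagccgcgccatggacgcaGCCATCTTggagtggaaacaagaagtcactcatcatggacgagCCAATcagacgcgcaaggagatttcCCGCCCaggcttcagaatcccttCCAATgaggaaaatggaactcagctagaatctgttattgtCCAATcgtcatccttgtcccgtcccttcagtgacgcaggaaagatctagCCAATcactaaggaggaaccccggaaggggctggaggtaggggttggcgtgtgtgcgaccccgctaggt
Mdh1: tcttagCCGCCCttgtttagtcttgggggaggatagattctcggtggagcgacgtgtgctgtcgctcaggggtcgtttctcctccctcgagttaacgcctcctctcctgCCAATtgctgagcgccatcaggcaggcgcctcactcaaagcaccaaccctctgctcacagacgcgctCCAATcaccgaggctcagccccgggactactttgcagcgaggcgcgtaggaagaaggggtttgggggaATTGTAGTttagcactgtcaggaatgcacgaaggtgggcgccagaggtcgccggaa
Rassf7: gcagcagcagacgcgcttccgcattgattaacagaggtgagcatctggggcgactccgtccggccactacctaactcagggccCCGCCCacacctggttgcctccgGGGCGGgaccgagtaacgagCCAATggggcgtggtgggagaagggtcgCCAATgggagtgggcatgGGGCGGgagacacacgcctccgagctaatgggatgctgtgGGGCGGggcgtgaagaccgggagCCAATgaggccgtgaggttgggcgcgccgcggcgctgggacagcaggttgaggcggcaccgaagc
Kctd21: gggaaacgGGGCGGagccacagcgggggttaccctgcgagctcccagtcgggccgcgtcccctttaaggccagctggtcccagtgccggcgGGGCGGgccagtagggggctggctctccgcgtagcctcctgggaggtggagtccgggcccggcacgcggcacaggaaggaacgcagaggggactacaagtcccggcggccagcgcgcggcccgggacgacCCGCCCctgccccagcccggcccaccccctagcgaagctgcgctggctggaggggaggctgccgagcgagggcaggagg
H2bc6: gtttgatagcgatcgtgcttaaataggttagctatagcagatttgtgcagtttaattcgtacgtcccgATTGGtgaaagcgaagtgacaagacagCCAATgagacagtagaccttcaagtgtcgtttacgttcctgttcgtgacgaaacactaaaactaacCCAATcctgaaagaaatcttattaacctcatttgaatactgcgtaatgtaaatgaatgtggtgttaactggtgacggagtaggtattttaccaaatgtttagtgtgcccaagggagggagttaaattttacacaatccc
The printed windows held 26, 16, 21, 27, 30 and 12 CpG dinucleotides in the order shown. H2bc6, a histone H2B gene, had the fewest CpGs and a GC content of 40.0%, against 75.3% at Kctd21. None of the 6 held a TATAAA match.

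Over all windows, shared promoters differed in letters from promoters at large. A window was counted for every RefSeq start of the genes concerned that the promoter table held, 1234 windows at start-to-start peaks and 213 at end-to-start peaks, beside 5943 at peaks of the start of 1 gene and 20085 for all protein-coding genes. The ETS sequence occurred in 16.5% of windows at start-to-start peaks, 15.0% at end-to-start peaks, 8.26% at starts of 1 gene and 5.28% of all windows. The YY1 core sequence occurred in 8.83%, 2.35%, 4.16% and 3.06%. TATAAA occurred in 4.05%, 7.98%, 6.95% and 12.7%. CCAAT was about equally frequent, at 37.8%, 42.7%, 37.9% and 38.1%. The median number of CpGs per window was 25 at start-to-start peaks, 20 at end-to-start peaks, 21 at starts of 1 gene and 14 over all windows. The windows of facing genes overlap, so a single match can count for both, and these shares are descriptions with no test.

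The other motifs are given in the same order of windows. The GC box occurred in 68.0%, 71.4%, 66.3% and 47.0%. The NRF1 core occurred in 4.78%, 5.63%, 4.48% and 2.54%, and the CRE in 4.86%, 3.29%, 3.45% and 2.3%. The ZNF143 core occurred in 1.3%, 0.469%, 1.21% and 0.891%. Among start-to-start peaks with a window, 112 had an ETS match and 473 did not. Their median accessibility was 26.3 and 26.6 CPM per kb of peak width, and their median log2 fold change 0.02 and -0.02. For the other 7 motifs, the median level with and without a match was furthest apart at ZNF143 (36.5 at 11 peaks against 26.4 CPM per kb) and CCAAT (29.0 at 274 peaks against 24.6).

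Strand was taken from the promoter table, which matched 17492 of 21900 protein-coding genes, so 402 shared peaks have no assigned arrangement. Of the rest, 598 joined 2 starts on opposite strands (start to start), 210 joined the end of a gene with the start of the next on the same strand (end to start), and 142 joined 2 finishing ends (end to end). A further 41 lay where a whole gene fitted within reach, as at histone genes, and 29 had 3 or more genes. The remaining 35 joined a start with an end on opposite strands (13), a shared start (16) or a shared end (6).

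Starts facing each other were close. The distance from the start on the minus strand to the start on the plus strand had a median of 35 bp, with quartiles of -113.5 and 113.5 bp, where a negative value means that the genes overlap at their starts. Of the 598 pairs, 384 had starts that did not overlap and 214 had starts that did, and 470 pairs had starts within 300 bp of each other. The peak covered both starts at 547 of them (91.5%). The midpoint of the peak lay a median of 135.75 bp from the midpoint between the starts. In end-to-start pairs the median gap was 441.5 bp, and in end-to-end pairs 74 bp.

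**Figure D1:**
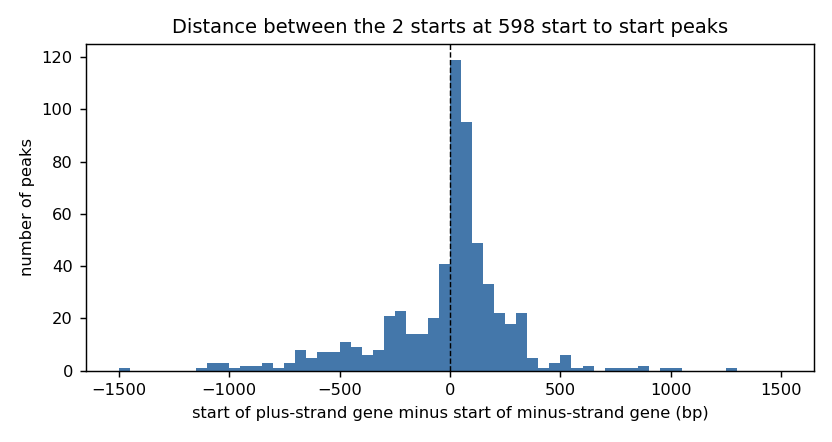
Histogram of the distance in bp between the starts of the 2 genes at the 598 start-to-start peaks, with the number of peaks on the vertical axis; negative values mean overlapping genes. The distances gather around the median of 35 bp, and 470 lie within 300 bp of 0.

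Shared gene-end peaks were more accessible than other peaks of the same width range, most of all where starts met. The median per library was 19.9 and 19.7 CPM per kb in the wild type and 20.8 and 19.3 in the mutants. At peaks near the end of 1 gene (9622 peaks) the medians were 15.2, 14.9, 16.3 and 14.9 CPM per kb, and away from gene ends (72016 peaks) 9.92, 10.1, 9.87 and 10.4. In every library the shared peaks stood highest. Start-to-start peaks had a median of 26.0 CPM per kb, end-to-start peaks 17.3 and end-to-end peaks 8.32. The corresponding medians for 1 gene were 17.8 at starts and 9.45 at finishing ends, so a peak between 2 starts exceeded a peak at 1 start, while a peak between 2 finishing ends did not exceed a peak at 1. Start-to-start peaks were also wider, with a median of 1290.5 bp against 800.5 bp for end to end.

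**Figure D2:**
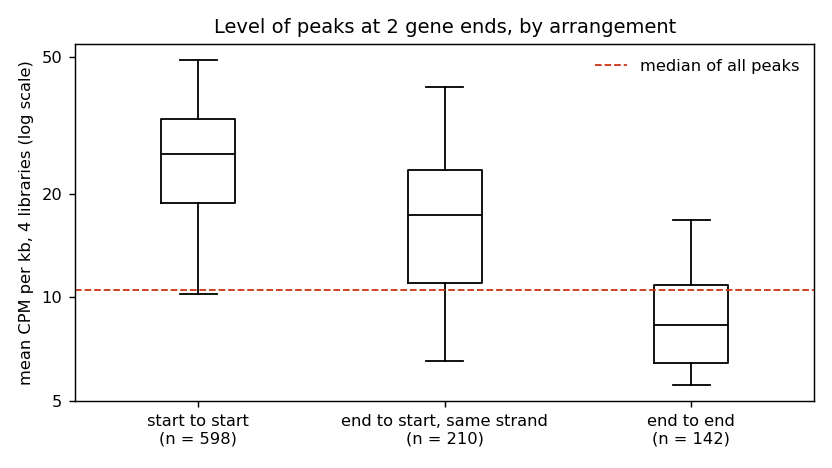
Accessibility of shared gene-end peaks (mean CPM per kb of peak width over 4 libraries, log axis) by arrangement, with the median as the line in each box, the quartiles as the box and the 5th to 95th percentiles as whiskers; the dashed line is the median of all peaks, 10.5. The median is 26.0 at start-to-start peaks, 17.3 at end-to-start peaks and 8.32 at end-to-end peaks, the last below the dashed line.

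The 10 shared peaks with the highest accessibility per kb were named by rule. The promoter of Rpgrip1l, a ciliary transition zone protein, and Fto, an RNA demethylase, led with 92.3 CPM per kb, and had 122 and 137 CPM in the wild type and 112 and 113 in the mutants. Both mutant libraries lay below both wild-type ones, with a log2 fold change of -0.20 ± 0.12 (SE) and an edgeR adjusted p of 0.358. Mdh1/Wdpcp, whose Mdh1 window is printed above, had 113 and 130 CPM in the wild type and 121 and 120 in the mutants. The mutants lay between the wild-type libraries, and the log2 fold change was -0.02 ± 0.12.

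The other 8 were Nop14/Grk4 (73.8 CPM per kb), Nmt1/Dcakd (72.2), H2ac6/H2bc4 (71.5), Pheta2/Smdt1 (71.2), Swt1/Trmt1l (70.8), Eny2/Nudcd1 (70.3), Mtrf1l/Rgs17 (69.0) and Cnga4/Fam160a2 (67.4). Nop14 acts in the making of the small ribosomal subunit, Nmt1 attaches myristate to proteins, Smdt1 is a subunit of the mitochondrial calcium uniporter, and Eny2 belongs to the SAGA coactivator complex. The log2 fold changes of the 10 ran from -0.20 to 0.17, with edgeR adjusted p-values of 0.358 to 0.949.

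Between the genotypes, few shared gene-end peaks differed. By edgeR's quasi-likelihood test with Benjamini-Hochberg adjustment over all peaks, 15 of 1457 (1.03%) had an adjusted p under 0.05, against 5.5% of all 87948 peaks. Higher in the mutants were 13 (0.892%, against 3.05% of all peaks) and lower were 2 (0.137%, against 2.45%). At peaks of 1 gene the share called was 2.0%, and away from gene ends 6.13%. Within the peaks of 1 gene it was 1.02% at starts and 5.71% at finishing ends. The share at shared peaks was thus close to that at the start of 1 gene. The wider peaks with 2 or more gene ends, 543 in number and 2000 bp or more wide, had 6 calls (1.10%), all higher. The count depended on single libraries: 6 peaks were called without wild-type replicate 1, 1 without wild-type replicate 2, 44 without mutant replicate 1 and 47 without mutant replicate 2. DESeq2 called 6 and limma voom 12. An unadjusted p under 0.05 was found at 110 shared peaks (7.55%), against 21.8% of all peaks. The share called among shared peaks was below that of all peaks, and below that of peaks of 1 gene, in each of these fits.

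The differences were also small in size. The median log2 fold change was 0.02, with 5th and 95th percentiles of -0.29 and 0.58, against 0.00, -0.87 and 0.87 over all peaks. The fitted change was under 1.5-fold at 1379 shared peaks (94.6%), against 77.1% of all peaks. It was so at 91.8% of peaks of 1 gene, and at 95.1% of those at a start, so small changes were not particular to shared peaks. A peak that misses the threshold is not thereby shown to be the same, so intervals were counted as well. The 95% interval of the fold change lay within 2-fold in either direction at 1326 shared peaks (91.0%) and at 60.7% of all peaks. It lay within 1.5-fold at 930 (63.8%), against 17.8% of all peaks. At peaks of 1 gene these shares were 85.3% within 2-fold and 47.4% within 1.5-fold. At the start of 1 gene they were 90.8% and 56.3%. Intervals narrow with depth, and the median standard error was 0.17 at shared peaks and 0.28 over all peaks.

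Libraries gave the same account directly. Both mutant libraries lay on one side of both wild-type libraries at 579 shared peaks (39.7%), 328 higher and 251 lower. The share was 51.5% over all peaks (25.8% higher, 25.7% lower) and 38.5% at the start of 1 gene. At shared peaks the median absolute log2 difference was 0.13 between the wild-type replicates, 0.20 between the mutant replicates and 0.13 between genotype means. Over all peaks these values were 0.23, 0.28 and 0.29. A difference of means is smaller by construction than one of single libraries, so these values only describe scale. The share of all counts that fell in shared peaks was 4.08% and 4.16% in the wild type and 4.08% and 4.01% in the mutants. The difference of -0.075 percentage points had an exact two-sided permutation p of 0.667, where 4 libraries allow no p below 0.333.

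Calls were unevenly spread over the arrangements. Of start-to-start peaks, 3 of 598 were called (0.502%), of end-to-start peaks 3 of 210 (1.43%) and of end-to-end peaks 4 of 142 (2.82%). Peaks of 1 gene had 63 calls among 6174 at starts (1.02%) and 74 among 1295 at finishing ends (5.71%). The median log2 fold change was 0.00 at start-to-start peaks, where 286 of 598 were positive, and 0.15 at end-to-end peaks, where 97 of 142 were positive. It was 0.14 at finishing ends of 1 gene, close to the value at paired ends. The 95% interval lay within 1.5-fold at 492 start-to-start peaks (82.3%) but at only 20 end-to-end peaks (14.1%), which are shallower. With mutant replicate 2 left out, 20 start-to-start peaks (3.34%) and 4 end-to-end peaks (2.82%) were called, so the order of these shares turned without that library.

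Calls were fewer at higher levels. Below a mean of 5 CPM, 4 of 151 shared peaks were called (2.65%), from 5 to 20 CPM 8 of 441 (1.81%), from 20 to 50 CPM 3 of 675 (0.444%) and at 50 CPM or more 0 of 190, where edgeR gave an unadjusted p under 0.05 at 6 and DESeq2 and voom made no call. The median log2 fold changes in these bands were 0.15, 0.10, 0.01 and -0.05. Across the 1457 peaks the Spearman correlation of log2 fold change with mean CPM was -0.24, against -0.12 at peaks of 1 gene and 0.12 away from gene ends, as a description over peaks that share the same 4 libraries. The share called also fell with level at peaks of 1 gene, from 3.64% in the lowest band to 0.641% in the highest. Away from gene ends it went the other way, from 5.35% to 11.9%. Within the band of 5 to 20 CPM, the median log2 fold change was 0.04 at 114 start-to-start peaks and 0.20 at 76 end-to-end peaks.

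**Figure D3:**
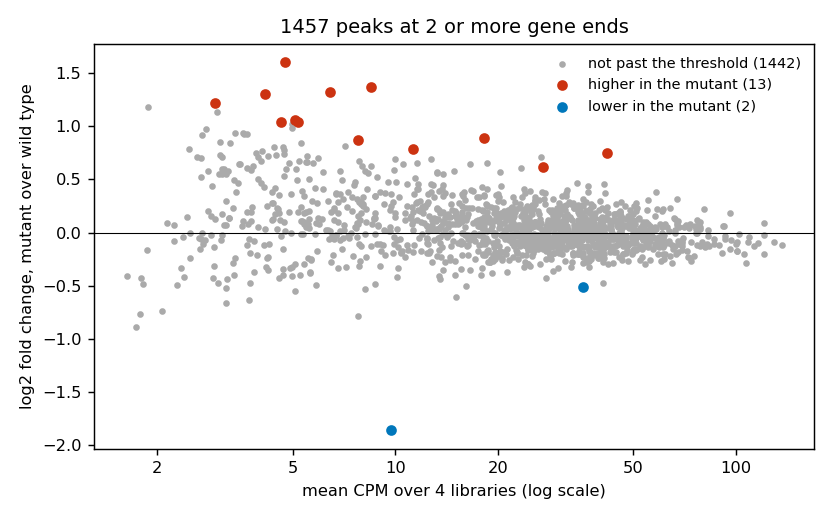
Log2 fold change (mutant over wild type) of each shared gene-end peak against its mean CPM over 4 libraries on a log axis, with the 15 called peaks marked. Most points lie near 0, the spread narrows toward high CPM, and no called peak lies at 50 CPM or more.

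**Figure D4:**
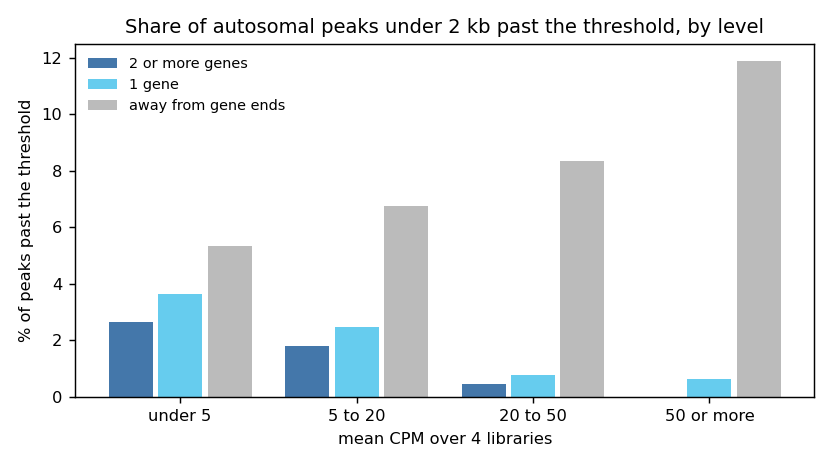
Percent of peaks past the edgeR threshold in 4 bands of mean CPM, for shared gene-end peaks, peaks of 1 gene and peaks away from gene ends, all autosomal and under 2000 bp wide. The share falls with level at shared peaks, from 2.65% to 0, and at peaks of 1 gene, from 3.64% to 0.641%. It rises from 5.35% to 11.9% away from gene ends.

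The largest change among the called shared peaks was lower accessibility where 2 genes end. The peak at chr5:143901983-143902623 lies 81 bp from the finishing end of Aimp2, a scaffold of the multi-tRNA synthetase complex. It lies 94 bp from that of Eif2ak1, the heme-regulated kinase of the translation factor eIF2. The genes overlap at their finishing ends, and both ends lie on the same side of the peak. The Aimp2/Eif2ak1 peak had 13.1 and 17.3 CPM in the wild type and 4.62 and 3.72 in the mutants. Both mutant libraries lay far below both wild-type libraries, and the log2 fold change was -1.86 ± 0.25 (SE), with an edgeR adjusted p of 0.000474. It was the only shared peak called whichever library was left out, with log2 fold changes of -2.04 to -1.65 and adjusted p-values up to 0.00514. The 3 other peaks within 10000 bp of it had log2 fold changes of -0.54 to -0.01, and none of them was called.

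The other 3 called end-to-end peaks rose in the mutants. Ifi35/Vat1 (chr11:101458940-101459819), beside an interferon-induced gene, had 2.83 and 1.96 CPM in the wild type and 4.81 and 7.0 in the mutants. The genotypes did not overlap, the log2 fold change was 1.30 ± 0.33 (SE), and the edgeR adjusted p was 0.0242. It did not pass when wild-type replicate 2 (adjusted p = 0.215) or mutant replicate 2 (0.082) was dropped, nor by DESeq2 (0.0574).

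Ttc21a/Csrnp1 (chr9:119969868-119971321) lies by Csrnp1, an immediate-early nuclear protein, and had 8.71 and 7.9 CPM in the wild type and 14.1 and 14.6 in the mutants. Replicates were close here, with a log2 fold change of 0.79 ± 0.22 and an edgeR adjusted p of 0.037. Without wild-type replicate 1 or 2 the adjusted p was 0.141 and 0.27, and by DESeq2 0.0596. Rhoc/Mov10 (chr3:104793745-104794902), by the small GTPase gene Rhoc and the RNA helicase gene Mov10, had 22.5 and 20.2 CPM in the wild type and 27.0 and 38.7 in the mutants. Mutant replicate 2 was the highest, and the log2 fold change of 0.62 ± 0.18 (edgeR adjusted p = 0.048) was 0.34 without it (adjusted p = 0.246). It was not called without wild-type replicate 1 (0.155) or 2 (0.331), with total-count scaling (0.0581), with a mean of at least 2 CPM required (0.0555), by DESeq2 (0.0905) or by voom (0.067).

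Among peaks joining 2 starts, Rassf7/Lmntd2 (chr7:141215375-141216781) rose and Usp35/Kctd21 (chr7:97331734-97332987) fell. Rassf7 encodes a Ras-association domain protein and Lmntd2 a lamin tail domain protein. Their peak had 14.1 and 11.5 CPM in the wild type and 26.2 and 21.0 in the mutants, with no overlap. The log2 fold change was 0.89 ± 0.19 (SE), with an edgeR adjusted p of 0.0122, and 0.182 without wild-type replicate 2. Usp35, a deubiquitinase, and Kctd21, a BTB-domain protein, share a start position, 0 bp apart. Their peak had 40.2 and 43.7 CPM in the wild type and 30.5 and 28.3 in the mutants, a log2 fold change of -0.51 ± 0.15. Its edgeR adjusted p of 0.0499 lay at the threshold, and became 0.207 and 0.411 without wild-type replicate 1 and 2. It was also lost with RLE scaling (0.0517), DESeq2 (0.0875) and limma voom (0.0596).

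The windows printed above for these pairs held 4 GC boxes at Rassf7 and 3 at Kctd21, and no ETS, NRF1, CRE or YY1 match. The Rassf7 window belongs to another RefSeq start of that gene within the peak. It holds neither of the starts that define the pair, at 141215425 for Rassf7 and 141215517 for Lmntd2. The third start-to-start call, Gm3435/Gm3448 (chr17:15009833-15010408), joins predicted genes that overlap at their starts, with a gap of -344 bp. It had 3.51 and 2.53 CPM in the wild type and 6.45 and 5.93 in the mutants (log2 fold change 1.04 ± 0.30, edgeR adjusted p = 0.0458). The adjusted p rose to 0.0849 or 0.341 on dropping wild-type replicate 1 or 2, and to 0.0751 on dropping mutant replicate 1. Total-count scaling (0.0522), a minimum mean of 2 CPM (0.0518) and DESeq2 (0.12) also ended the call.

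All 3 end-to-start peaks that were called rose. Sptbn5/Ehd4 (chr2:120088082-120089483), by a spectrin gene and an endosomal recycling ATPase gene, had 6.11 and 3.35 CPM in the wild type and 14.7 and 9.65 in the mutants. Replicates spread widely within each genotype but did not overlap, and the log2 fold change was 1.37 ± 0.29 (SE). Its edgeR adjusted p was 0.0101, or 0.14 with wild-type replicate 2 left out. Of the 8 other peaks within 10000 bp of it, all 8 had a positive log2 fold change and 3 were called higher.

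Cdc34/Gzmm (chr10:79688412-79689029) lies by a ubiquitin-conjugating enzyme gene and the gene of granzyme M. It had 3.9 and 2.89 CPM in the wild type and 6.69 and 7.26 in the mutants (log2 fold change 1.04 ± 0.29, edgeR adjusted p = 0.0379). Bloc1s1/Rdh5 (chr10:128919105-128919814), by a subunit gene of lysosome-related organelle complexes and a retinol dehydrogenase gene, had 5.21 and 5.78 CPM against 9.37 and 10.8 (0.87 ± 0.25, edgeR adjusted p = 0.0414). Genotypes did not overlap at either. Cdc34/Gzmm was lost without wild-type replicate 1 (0.0759) or 2 (0.302), and Bloc1s1/Rdh5 on dropping either wild-type replicate (0.227 and 0.171) or mutant replicate 2 (0.0819). DESeq2 called neither, with adjusted p-values of 0.0919 and 0.0831.

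Of the pairs with no strand here, 3 outside the histone genes also rose, all from low levels. Samd14/Pdk2 (chr11:95026322-95027287), by a pyruvate dehydrogenase kinase gene, had 2.49 and 2.22 CPM in the wild type and 4.93 and 9.34 in the mutants. Mutant replicate 2 stood well above replicate 1, and the log2 fold change was 1.60 ± 0.33 (SE), at an edgeR adjusted p of 0.00904. It was 1.06 without mutant replicate 2 (adjusted p = 0.0617), and the adjusted p without wild-type replicate 2 was 0.0591.

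Kcnj14/Grwd1 (chr7:45824751-45825471), by an inward-rectifier potassium channel gene and a ribosome assembly gene, had 4.64 and 2.74 CPM in the wild type and 10.3 and 8.01 in the mutants. Its log2 fold change was 1.32 ± 0.29 (edgeR adjusted p = 0.0126, and 0.173 on dropping wild-type replicate 2). Nudt18/Fam160b2 (chr14:70582950-70583441), by a Nudix hydrolase gene, had 1.58 and 1.96 CPM against 4.26 and 4.04, a log2 fold change of 1.22 ± 0.35 (edgeR adjusted p = 0.0434). Dropping wild-type replicate 1 or 2 gave 0.236 or 0.152, and dropping mutant replicate 1 gave 0.0591. DESeq2 gave 0.133 and voom 0.0551.

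Histone genes of the replication-dependent type lie in clusters, are short, and are often paired so that a peak covers the start of both or a whole gene. Of 20 shared peaks at core histone genes, 2 rose, 0 fell and 18 did not pass. Over all peaks 3.05% were called higher and over shared peaks 0.892%, so 2 of 20 is above both shares, though the count is small. An unadjusted edgeR p under 0.05 was found at 4 of the 20, a share above the 7.55% of shared peaks. The 20 had a median log2 fold change of 0.22 against 0.02 over all shared peaks. H2bc6/H1f4 (chr13:23620647-23622131), at a histone H2B gene and a linker histone gene, had 31.6 and 30.6 CPM in the wild type and 45.4 and 59.3 in the mutants. Both mutant libraries stood above both wild-type ones, by 0.75 ± 0.16 (SE) in log2 fold change, at an edgeR adjusted p of 0.009. It was lost without wild-type replicate 1 (0.0681) or 2 (0.116).

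H4c1/H3c1 (chr13:23761595-23762005), at a histone H4 and a histone H3 gene, had 3.23 and 3.35 CPM in the wild type and 6.93 and 6.81 in the mutants. The replicates nearly coincided, with a log2 fold change of 1.06 ± 0.28 (edgeR adjusted p = 0.0311, and 0.157 and 0.161 on dropping wild-type replicate 1 and 2, and 0.0746 by DESeq2). H3c13/H2bc18 had 30.7 and 26.7 CPM against 39.4 and 39.9 and did not pass (0.47 ± 0.15, edgeR adjusted p = 0.0755). At H2ac18/H3c14 the order was the other way, 6.9 and 6.71 CPM against 5.35 and 4.35, a log2 fold change of -0.49 that did not pass.

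Summed over the 20 peaks, histone accessibility was 393 and 379 CPM in the wild type and 430 and 479 in the mutants. Of the 20, 16 had a positive log2 fold change. Without mutant replicate 2 the median was 0.03 with 12 positive, and without mutant replicate 1 it was 0.38 with 15 positive, so the positive median depended on mutant replicate 2. Without wild-type replicate 1 or 2 no histone peak was called. Histone genes have near-identical copies, and reads that map to several of them could be split or dropped, so these counts are uncertain.

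**Figure D5:**
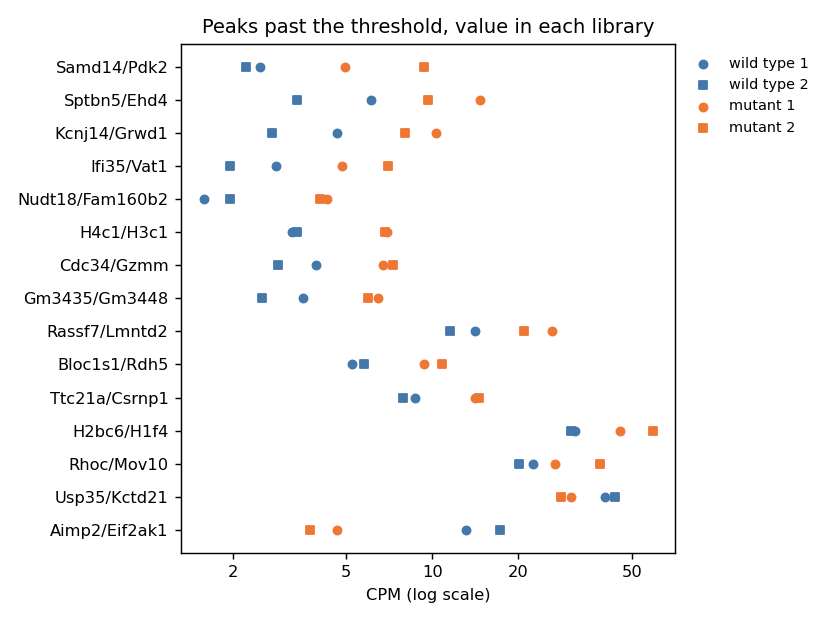
CPM of the 15 called shared gene-end peaks in each library on a log axis, wild type and mutant in different colours. In all 15 the 2 mutant libraries lie on one side of the 2 wild-type libraries, above at 13 and below at Aimp2/Eif2ak1 and Usp35/Kctd21.

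Housekeeping lists held many shared peaks and no call among them. EdgeR called 1.03% of all shared peaks and 5.5% of all peaks, so lists of this size would hold few calls at the share of shared peaks. On the 112 peaks of the next 5 lists together, 5 (4.46%) had an unadjusted edgeR p under 0.05. That share was 7.55% over all shared peaks. DESeq2 and voom called none of the 112. Of 38 shared peaks at genes of the respiratory chain and ATP synthase, 0 rose or fell, with a median log2 fold change of 0.00. Of 28 at mitochondrial ribosome genes, 25 at cytosolic ribosome genes, 11 at proteasome genes and 16 at tRNA synthetase genes, 0 were called in each, with medians of 0.05, 0.11, 0.04 and 0.01. Ndufs3/Kbtbd4, whose Ndufs3 window is printed above, had 26.0 and 22.1 CPM in the wild type and 22.7 and 22.8 in the mutants. Its log2 fold change was -0.08 ± 0.17. Mrps12/Sars2 had 44.9 and 47.2 CPM in the wild type and 40.5 and 47.2 in the mutants, and its log2 fold change was -0.07 ± 0.15. The highest value of the respiratory list, chosen after its values were seen, was at Yjefn3/Ndufa13, with 2.72 and 2.22 CPM against 4.56 and 4.86 (0.93 ± 0.32, edgeR adjusted p = 0.0904).

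Genome maintenance and gene expression lists also had no call, where edgeR called 1.03% of all shared peaks. Among their 217 peaks, 6 (2.76%) had an unadjusted edgeR p under 0.05, against 7.55% of all shared peaks. DESeq2 and voom called none. There were 0 calls among 38 shared peaks at DNA repair genes, 24 of them start to start, with a median log2 fold change of 0.00 and a range of -0.21 to 0.38. There were 0 among 27 at replication and cell cycle genes (median -0.06), 29 at splicing factors (-0.02), 33 at general transcription genes (0.01), 29 at chaperones (0.05) and 32 at zinc finger genes (0.05). In chromatin regulators 0 of 39 were called, with a median of 0.03. The 3 of these with the smallest p were Brd3os/Brd3 (4.87 and 3.66 CPM against 6.27 and 7.19, log2 fold change 0.66), Smarcc2/Myl6 (0.40) and Ndufa4/Phf14 (0.32), with edgeR adjusted p of 0.169, 0.223 and 0.24. Slc7a6os/Prmt7, the promoter of another arginine methyltransferase gene, had a log2 fold change of -0.01 ± 0.15.

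Other lists of genes were also mostly near 0. At vesicle, solute carrier and collagen genes, 6 of 105 peaks (5.71%) had an unadjusted edgeR p under 0.05, against 7.55% of shared peaks. DESeq2 and voom called none. Vesicle traffic and autophagy genes had 66 shared peaks with 0 calls (median 0.04), solute carriers 39 with 0 (0.02), and ubiquitin ligases and peptidases 52 with 0 higher and 1 lower (-0.01), the lower one being Usp35/Kctd21. The 3 peaks at collagen genes had log2 fold changes of 0.16 to 0.52, none called. Col4a3/Col4a4, which share a basement membrane collagen promoter, had 9.32 and 8.17 CPM per kb in the wild type and 13.5 and 11.3 in the mutants (0.51 ± 0.22, edgeR adjusted p = 0.178). Over all lists together, 496 shared peaks held 2 higher and 1 lower call, where edgeR called 1.03% of all shared peaks and 5.5% of all peaks.

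Genes of heart muscle were also looked up. Of 62 contractile and cardiac stress genes, 5 had shared peaks, 7 in all, with a median log2 fold change of 0.06. EdgeR, DESeq2 and voom called 0 of the 7, and 1 had an unadjusted edgeR p under 0.05. Over all shared peaks edgeR called 1.03%, and 7.55% had an unadjusted p under 0.05. Cryab, a small heat shock protein gene, had with 2310030G06Rik 4.75 and 3.72 CPM in the wild type and 8.27 and 5.11 in the mutants (0.66 ± 0.30, edgeR adjusted p = 0.195). Mutant replicate 1 was the higher of the mutants. Rec114/Hcn4, at the gene of a pacemaker channel, had 6.73 and 5.88 CPM against 8.82 and 7.57 (0.38), and Trpc4ap/Myh7b 10.9 and 10.3 against 12.7 and 13.4 (0.30). Neither passed.

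Fatty acid oxidation genes had 12 shared peaks, 0 of them called by edgeR, DESeq2 or voom. An unadjusted edgeR p under 0.05 was found at 3 of the 12. That share is above the 7.55% of all shared peaks and close to the 21.8% of all peaks. The median log2 fold change of the 12 was 0.13. Zcchc17/Fabp3, where the fatty acid carrier gene of heart meets its neighbour end to end, had 22.5 and 18.3 CPM in the wild type and 45.0 and 21.6 in the mutants. Only mutant replicate 1 was high, mutant replicate 2 lay between the wild-type libraries, and the edgeR adjusted p was 0.0803. Pde6a/Ppargc1b, at a coactivator of mitochondrial genes, had 4.07 and 4.03 CPM against 6.45 and 5.87 (0.60, edgeR adjusted p = 0.207). Paox/Echs1, at the enoyl-CoA hydratase gene, had 38.6 and 43.7 against 34.7 and 31.1 (-0.32, edgeR adjusted p = 0.219).

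At cell type markers, 0 of 8 shared peaks were called by edgeR, DESeq2 or voom, and 0 had an unadjusted p under 0.05. By edgeR these shares were 1.03% and 7.55% over all shared peaks, so 0 of 8 is near both. The endothelial ones included Fpgs/Eng, with 2.43 and 2.58 CPM in the wild type and 3.59 and 3.79 in the mutants (log2 fold change 0.55), and Ptprr/Ptprb, with 5.26 and 3.41 against 3.16 and 3.09 (-0.47). Pdgfrl/Mtus1 for fibroblasts (0.20), Gm52351/Pdgfrb for mural cells (0.07) and Cd79a/Arhgef1 for leukocytes (0.10) were near 0. The summed level of the 3 endothelial peaks was 18.4 and 13.6 CPM in the wild type and 13.6 and 17.0 in the mutants. Erythroid markers had none. How far the mix of cell types bears on the calls was not tested.

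Gene pairs listed as sharing a promoter were also looked up, 19 in number. Of these, 8 had 1 or more shared peaks under 2000 bp wide, none called by edgeR, DESeq2 or voom. Mcm4/Prkdc, of replication and double-strand break repair, had 55.3 and 56.6 CPM in the wild type and 50.5 and 51.0 in the mutants (-0.14). Sirt3/Psmd13 had -0.19, Sdhd/Timm8b -0.10, Surf2/Surf1 0.29, and the peak of Cox4i1 and Emc8 -0.07. A further 9, among them Hspd1/Hspe1, Brca1/Nbr1, Trp53/Wrap53 and Col4a1/Col4a2, had a common peak that was 2015 to 4317 bp wide and so fell outside the width limit; none of these was called, with log2 fold changes of -0.19 to 0.30. Over both widths, 1 of 18 peaks (5.56%) had an unadjusted edgeR p under 0.05, against 7.55% of shared peaks. EdgeR called 1.03% of shared peaks, so 0 calls among 18 is near that share. Tbp/Psmb1 and Acat2/Tcp1 had no common peak. Their closest gene ends lay 1612 and 17975 bp apart in the gene positions used, so this says nothing about accessibility.

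The peaks near the most genes lay at the common finishing end of the gamma-protocadherin cluster, which encodes neuronal adhesion molecules from many alternative first exons. One peak was near 24 genes and its neighbour near 25. The first had 7.3 and 8.0 CPM in the wild type and 14.9 and 9.72 in the mutants, and the second 5.15 and 5.21 against 11.3 and 6.88. Mutant replicate 1 was the highest in both, and the log2 fold changes of 0.69 and 0.81 had edgeR adjusted p of 0.103 and 0.0862.

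Near the 15 called peaks there were 62 other peaks within 10000 bp. Of these, 48 had a log2 fold change of the same sign as the called peak, 6 were called in the same direction and 0 in the opposite one. Over all peaks 49.9% had a positive log2 fold change and 5.5% were called. The 6 lay at 4 of the called peaks: Sptbn5/Ehd4 (3), Bloc1s1/Rdh5 (1), H4c1/H3c1 (1) and Rhoc/Mov10 (1). No other peak lay within that distance of Usp35/Kctd21 or Gm3435/Gm3448.

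Values on either side of the limits of the rule were alike. The 63 shared peaks of 1900 to 1999 bp had a median of 25.9 CPM per kb and 0 calls, and the 56 peaks of 2000 to 2099 bp had 25.7 and 0 calls. The 110 peaks that reached their other gene only beyond 400 bp had a median of 11.5 CPM per kb, and the 115 peaks that would enter at 600 bp had 10.9, with 1 call each.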

How the data were processed

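Whole-number counts of the 4 libraries, not normalized, were deposited by the authors for each peak, per the file headers. Bowtie2, FastQC and the build mm10 are named in the submitters' processing notes. The peak caller, read filters, duplicate handling and read shifts are not given in the sources used. Any of them can alter the regions and the counts. From these counts, peaks were matched to RefSeq protein-coding gene ends, and edgeR 4.0.16 (R 4.3.3) was fitted over all 87948 peaks with TMM scaling, genotype as the only term and an adjusted p under 0.05. filterByExpr removed 0 peaks. Replicates varied by a common coefficient of 0.166, estimated on 2 residual degrees of freedom. CPM used TMM-adjusted library sizes, and standard errors came from the test statistic.

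Named peaks were the called ones (up to 10 per direction, and here the remaining 3 higher ones as well, added after their values were seen), the 10 highest by CPM per kb, known gene pairs, the peaks near the most genes, the 3 smallest p-values each of the chromatin, fatty acid oxidation and contractile lists, and markers. Histone peaks and those of Carm1, Prmt7, Ndufs3 and Ndufa13 were added after their values were seen. Members and gene lists were chosen with earlier results of these data known, so no count over a list is independent evidence. The 26 lists had 436 entries, of which 435 matched RefSeq symbols. Where 2 promoter windows overlapped, all 402 such pairs agreed base for base. Alternatives used DESeq2 1.42.0, limma 3.58.1 voom, RLE and total-count scaling, other filters, each library left out and other rules of membership. Some items are not reported here by name. Motifs were searched with Python 3.11.15.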

Additional observations from a re-analysis of the deposited data

How the results depend on the processing

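Against 13 higher and 2 lower calls, edgeR with a replicate block gave 34 and 5, DESeq2 gave 5 and 1, limma voom 11 and 1, RLE scaling 13 and 1 and total counts 11 and 3. Leaving out each library in turn gave 0 to 36 higher and 1 to 13 lower calls. The lone library left in a genotype is then assumed to vary like the others. The replicate block called 2.68% of shared peaks and 11.1% of all peaks, against 1.03% and 5.5% in the main fit. DESeq2 called 0.412% and 2.7%, and voom 0.824% and 4.21%. A reach of 1000 bp gave 25 higher and 2 lower calls among 2046 peaks (1.32%). Distances from the peak midpoint gave 4 higher and 2 lower among 938 (0.64%). Both used the main fit, with 5.5% of all peaks called. The replicate numbers share only a number: the deviations of same-numbered libraries correlated at 0.108 over 2 pairs, and the labels tie them to nothing. The median log2 fold change of 0.024 became -0.011 with total counts, where the median of all peaks was -0.04, and ran from -0.014 to 0.057 with libraries left out. The ratio of the median level at shared peaks to that at peaks of 1 gene was 1.31. It was 1.59 per peak instead of per kb, 1.35 at 250 bp, 1.22 at 1000 bp, 1.28 with no width limit and 1.38 from the midpoint, where 938 peaks qualified. Of the 15 called peaks, 14 remained called with RLE scaling, 13 with total counts, 12 with voom and 6 with DESeq2. None of the 15 called peaks changed sign in the alternatives run. Of the 73 named peaks, 19 that were not called changed sign in 1 or more, with log2 fold changes of at most 0.32 in size before. Of the 803 values of named peaks under alternatives, 46 lost a call and 12 gained one. No gene symbol joined 2 others with a hyphen, so the planned removal of read-through genes was not run. At end-to-end peaks the counts were lower and the 95% intervals wider.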
